A study of Rattus norvegicus with 90 samples.

Results

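The comparison set out here is that of brain microglia from rats given the middle intravenous dose of human umbilical cord mesenchymal stromal cells (HuMSC) with microglia from injured rats that received no cells, both collected at postnatal day 22 (P22). The libraries were chosen by their titles: 3 libraries of rats given 50 M cells per kg at P20 (HuMSC50) and 3 of injured rats given phosphate-buffered saline (PBS) in place of cells, 6 of the 90 libraries of the series. The study tested 3 doses, 2 routes and 3 ages of giving HuMSC in a rat model of the inflammatory brain injury of preterm infants. Brains without olfactory bulbs and cerebellum were perfused and dissociated 48 hours after the cells, CD11b/c-positive cells were collected on magnetic beads, and their polyadenylated RNA was sequenced.

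All rats were Wistar Han males. Injured rats had been injected intraperitoneally from P1 to P5 with recombinant mouse interleukin-1β (IL-1β) at 20 µg/kg, and both groups of the main comparison carried this injury. The HuMSC50 rats then received 50 M cells per kg intravenously at P20, and the injured rats received PBS as a sham treatment. Of the groups of the same intravenous experiment used beside them, control rats received PBS in place of IL-1β and again as the sham treatment, HuMSC20 rats received IL-1β and 20 M cells per kg, and HuMSC125 rats received IL-1β and 125 M cells per kg. Each group had 3 libraries. The labels do not say whether these came from separate animals or pools, and p-values here measure only how far these samples differ from each other, which may be technical. All 15 libraries of the intravenous P22 experiment were in 1 sequencing run.

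Microglia are the resident macrophages of the brain. They hold their mature state through signals such as TGF-β and CSF1, clear dying cells and synapses, and answer systemic inflammation with changes in transcription that in newborn rodents accompany poor myelination. Mesenchymal stromal cells are given in such models for their secreted factors. After an intravenous dose most of them are known to lodge in the lungs, so that effects on the brain are usually thought of as indirect.

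The 15 libraries held between 16.2 M and 24.4 M counts assigned to genes, with correlations of 0.984 to 0.993 between libraries of a group, and no pair of libraries agreed within sampling noise. Csf1r, the receptor of the survival factor CSF1 and a defining microglial gene, stood at 11063 to 14360 CPM, counts scaled to a common library total of 1 M, in the 15 libraries. Cells other than microglia were also present: the markers of astrocytes summed to 3256 to 3432 CPM in injured and 3472 to 3692 CPM in HuMSC50 libraries, those of endothelial cells to 2260 to 2857 and 2451 to 3175 CPM, and those of oligodendrocytes to 2040 to 3442 and 2124 to 3109 CPM. Markers of fibroblasts summed to 462 to 620 CPM in injured and 626 to 850 CPM in HuMSC50 libraries, with 11 of 12 tested above 0 (median log2 fold change 0.28), and those of ependyma and choroid plexus to 1950 to 4759 and 3367 to 7376 CPM, with 10 of 11 above 0 (median 0.63). Dendritic cell markers summed to 687 to 795 CPM in injured and 577 to 686 CPM in HuMSC50 libraries. Their mean log2(CPM + 1) over members went the other way, at 3.095 to 3.235 in injured and 3.279 to 3.384 in HuMSC50 libraries. The summed levels of the groups did not overlap for astrocyte, fibroblast and dendritic cell markers and overlapped for the other types named here. By mean log2(CPM + 1), astrocyte markers overlapped, at 4.51 to 4.93 in injured and 4.63 to 5.18 in HuMSC50 libraries. Fibroblast markers overlapped on that scale too, at 4.69 to 5.05 and 4.99 to 5.30. For single genes, the 2 groups did not overlap for 33.6% of all tested. None of the 16 astrocyte, 15 endothelial, 17 oligodendrocyte, 12 fibroblast, 11 ependymal and choroid plexus and 9 dendritic cell markers tested passed between HuMSC50 and injured, and the part of these cells in the results was not tested. In these bulk samples, fewer cells of a type and less RNA per cell cannot be told apart.

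The genes that fell in HuMSC50 against injured microglia included many of the ribosomal proteins and some of the respiratory chain. They also included heat shock genes and some markers of blood leukocytes. Those that rose included the coactivator gene Ncoa3, the phagocytic receptor gene Mertk and many genes of long genomic span. With edgeR's quasi-likelihood test and Benjamini-Hochberg adjustment, 718 of 14032 tested genes (5.12%) passed an adjusted p of 0.05. Of these, 340 genes rose (2.42%) and 378 fell (2.69%). The changes were modest: the median size was 0.49 on the log2 scale for the genes that rose and 0.52 for those that fell, and 21 and 41 of them exceeded 1. All 3 libraries of one group lay beyond all 3 of the other for 4712 genes (33.6%).

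**Figure D1:**
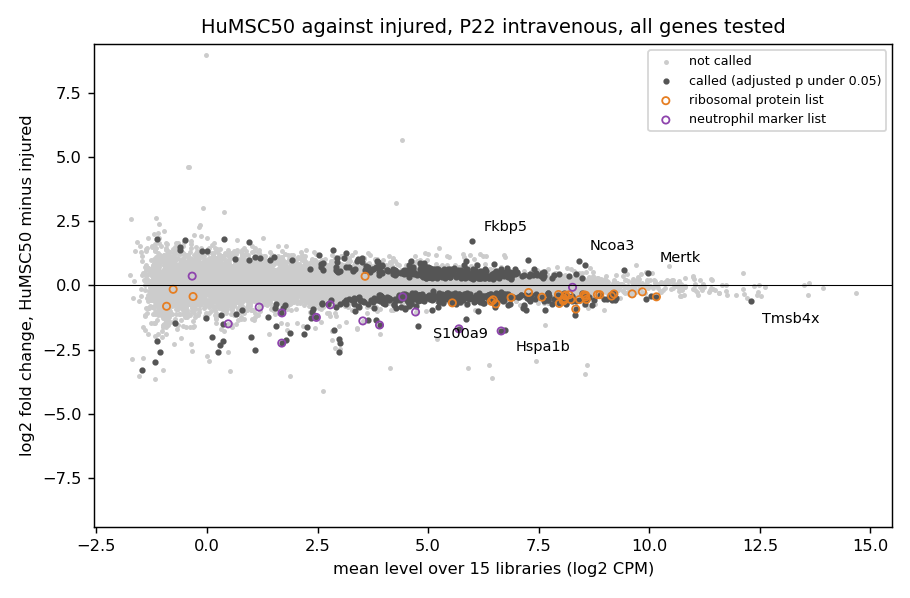
Each point is 1 of the 14032 tested genes, with its mean level over the 15 intravenous P22 libraries (log2 CPM) on the x axis and its log2 fold change, HuMSC50 minus injured, on the y axis. Dark points are the 718 called genes, and rings mark the ribosomal protein and neutrophil marker lists, whose members lie mostly below 0.

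The number of calls turned on single libraries. It was 844 without HuMSC50 replicate 1, 1 without replicate 2 and 23 without replicate 3, and 138, 2 and 2 without injured replicates 1, 2 and 3. The single gene called in all of these was Ncoa3, and Tmem202 was the other gene called without injured replicate 2 or 3, so that every other call named below was lost when any of HuMSC50 replicate 2 or injured replicates 2 or 3 was left out. Between 717 and 718 of the 718 genes kept their sign in those 6 fits, but they were picked as called in the full fit. Each of those fits also shares most of its libraries with the full fit, so the kept signs are no independent support. With library totals in place of TMM factors, 503 genes were higher and 314 lower, against 340 and 378.

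Ncoa3 encodes nuclear receptor coactivator 3, which joins ligand-bound nuclear receptors and recruits histone acetyltransferases. Its level was 217, 235 and 245 CPM in injured libraries and 463, 442 and 436 CPM in HuMSC50 libraries. Control libraries held 427, 415 and 354 CPM. HuMSC20 libraries held 245, 254 and 228 CPM, and HuMSC125 libraries 340, 381 and 391 CPM. The injured and HuMSC20 libraries thus lay below all others, and HuMSC50 lay just above the controls. HuMSC50 exceeded injured by 0.94 ± 0.09 on the log2 scale (SE, n = 3 and 3, edgeR adjusted p = 0.000465), and the gene passed the test under each alternative run, with adjusted p up to 0.0211. Against control the difference was 0.17 ± 0.09 (edgeR adjusted p = 0.267).

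Ncoa3 belonged to a list of 27 tested chromatin and transcription regulators, with a median log2 fold change of 0.21 against 0.02 over all genes. In edgeR's test 3 of them rose and none fell, while 2.42% of all tested genes rose and 2.69% fell. The other 2 that rose were Ncoa2, a coactivator of the same family as Ncoa3, and Med13. Med13 is a subunit of the Mediator complex that links activators to RNA polymerase II. Ncoa2 stood at 33.5, 32.1 and 26.2 CPM in injured and at 42.9, 49.4 and 44.9 CPM in HuMSC50 libraries, with no overlap (log2 fold change 0.58 ± 0.13, edgeR adjusted p = 0.0262). Med13 had a log2 fold change of 0.54 ± 0.13 (edgeR adjusted p = 0.0376). The count of 3 became 1, with Ncoa3 alone, without HuMSC50 replicate 2 or 3 or injured replicate 2 or 3, and also once the trend of gene span described below was removed.

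The largest rise by the naming rule was that of Fkbp5, an immunophilin that dampens the glucocorticoid receptor and is itself induced by it. Fkbp5 was at 26.5, 27.5 and 29.4 CPM in injured and at 149, 63.7 and 61.1 CPM in HuMSC50 libraries. The naming rule required that the groups not overlap. HuMSC50 replicate 1 held more than the other 2 together, and the controls ranged from 33.0 to 155 CPM. The log2 fold change was 1.71 ± 0.47, with an edgeR adjusted p of 0.0495 at the edge of the threshold, and 0.0124 to 0.158 over the alternatives. Without HuMSC50 replicate 1 the log2 fold change was 1.17 (edgeR adjusted p = 0.134). Of the 17 tested genes of the glucocorticoid response list, Fkbp5 was the 1 that rose and none fell, with a median of 0.30 against 0.02 over all genes. Among all tested genes, 2.42% rose and 2.69% fell. Tsc22d3, the glucocorticoid-induced leucine zipper, had a log2 fold change of 0.57 ± 0.24 (edgeR adjusted p = 0.146), Per1 0.54 ± 0.21 and Sgk1 0.30 ± 0.20, and none of these passed.

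The next genes by size were Strip2, Olfm3, Cds1, Trim68, Epb41l5, Ino80d, Jade2, Ciita, Homer2, Tmem65, Hook1, Tmem150c, Deptor and Flvcr1, whose log2 fold changes lay between 0.97 and 1.36. Among them, Ciita is the master transactivator of MHC class II genes, Ino80d and Jade2 belong to chromatin complexes, Cds1 makes a precursor of phosphoinositides, Deptor binds and restrains mTOR, and Flvcr1 is a transporter of choline and haem. Ciita rose from 6.35, 5.92 and 4.13 CPM to 12.5, 8.52 and 13.1 CPM (log2 fold change 1.06 ± 0.29, edgeR adjusted p = 0.0482). The naming rule admitted only genes without overlap between the groups. Ciita was the single gene called among 20 tested antigen presentation genes, whose median was -0.06, and 2.42% of all tested genes rose. Most of these 14 genes were at low levels, and without HuMSC50 replicate 2, or without injured replicate 2 or 3, none of them was called.

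Cpeb4 and Dennd1b rose with small spreads between libraries. Cpeb4, which binds the tails of messenger RNAs and controls their translation, was at 44.1, 46.3 and 44.5 CPM in injured and at 76.6, 83.7 and 72.4 CPM in HuMSC50 libraries (log2 fold change 0.79 ± 0.11, edgeR adjusted p = 0.00897). Dennd1b, an activator of Rab GTPases in membrane traffic, was at 11.3, 10.4 and 9.17 CPM against 18.4, 21.6 and 20.0 CPM (log2 fold change 0.96 ± 0.13, edgeR adjusted p = 0.00897). For both genes each HuMSC50 library also exceeded each control, HuMSC20 and HuMSC125 library. Both lost their call without HuMSC50 replicate 2, or without injured replicate 2 or 3.

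Few genes of microglial identity passed. Of 24 tested homeostatic genes, 2 rose, 1 fell and 21 did not pass, with a median log2 fold change of 0.05. Over all tested genes, 2.42% rose and 2.69% fell. Mertk, the receptor through which microglia take up apoptotic cells, was at 816, 839 and 786 CPM in injured and at 1115, 1111 and 1188 CPM in HuMSC50 libraries (log2 fold change 0.48 ± 0.08, edgeR adjusted p = 0.0146). The controls, at 1131, 1122 and 1174 CPM, lay in the HuMSC50 range. Mef2a, a transcription factor of the mature microglial programme, rose by 0.49 ± 0.10 (edgeR adjusted p = 0.0227).

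Aif1, which encodes the microglial marker IBA1, was the homeostatic gene that fell. It was at 1053, 1116 and 1193 CPM in injured and at 837, 662 and 803 CPM in HuMSC50 libraries, with no overlap (log2 fold change -0.55 ± 0.11, edgeR adjusted p = 0.0241). Trem2, a lipid receptor of phagocytes, had a log2 fold change of -0.51 ± 0.15 and did not pass (edgeR adjusted p = 0.0649). The log2 fold changes of P2ry12, Tmem119, Cx3cr1 and Csf1r were -0.03 ± 0.15, -0.36 ± 0.23, 0.21 ± 0.12 and 0.11 ± 0.09, and none passed. The counts of 2 and 1 for this list were 4 and 1 without HuMSC50 replicate 1, 1 and 0 without injured replicate 1, and 0 and 0 when any of the other 4 libraries was left out.

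TGF-β signalling keeps microglia in their homeostatic state. Of its 26 tested genes, 3 rose and none fell in edgeR's test, with a median of 0.19, while 2.42% of all tested genes rose. Smad4, the common partner of the receptor-activated SMADs, was at 62.4, 60.7 and 58.0 CPM in injured and at 71.7, 71.9 and 73.6 CPM in HuMSC50 libraries, the smallest of the 3 changes (log2 fold change 0.26 ± 0.06, edgeR adjusted p = 0.0363). The other 2 are inhibitors of the pathway: Skil, a SMAD corepressor, changed by 0.51 ± 0.10 (edgeR adjusted p = 0.0227) and Smurf2, a ubiquitin ligase for the receptors, by 0.41 ± 0.09 (edgeR adjusted p = 0.0261). The count of 3 was 4 without HuMSC50 replicate 1, 1 without injured replicate 1 and 0 without any one of the other 4 libraries, and it was 1 with the trend of gene span removed.

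**Figure D2:**
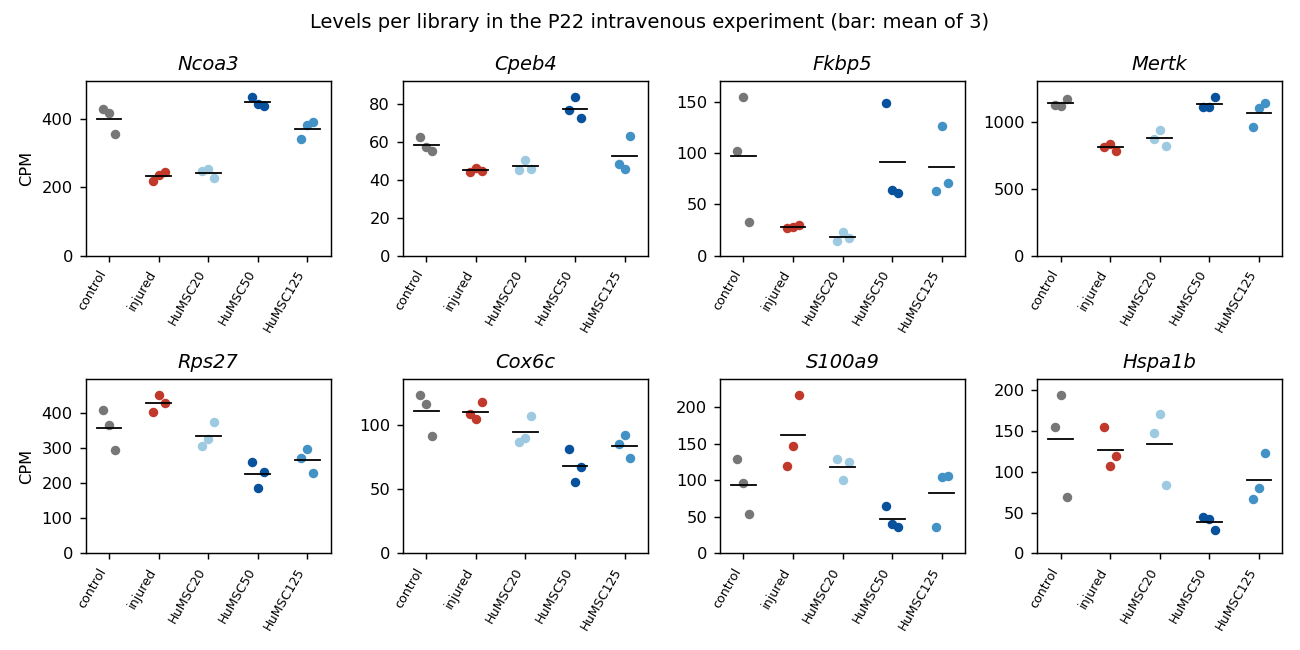
Levels of 8 genes (CPM, y axes from 0) in each library of the 5 groups of the intravenous P22 experiment; each point is a library and each bar the mean of 3. Ncoa3 and Mertk lie near the control level in HuMSC50 libraries, and Rps27, Cox6c, S100a9 and Hspa1b have their lowest group mean there.

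Of the lists used, that of ribosomal proteins held the most genes that fell. Of 33 tested members of the ribosomal protein list, 22 fell and none rose in edgeR's test. By comparison, 2.69% of all tested genes fell and 2.42% rose. The median log2 fold change of the list was -0.45 against 0.02 over all genes. The summed level of the list was 11394 to 12346 CPM in injured and 8235 to 9569 CPM in HuMSC50 libraries, with no overlap. Controls held 9071 to 11643 CPM. Over symbols starting with Rpl, Rps or Rplp and a digit, without Rps6k or hyphenated ones, 51 of 73 tested entries fell and none rose. This wider set was chosen after its values were seen and takes in genes by name alone, such as Rps19bp1. The rat genome holds many near-identical copies of ribosomal protein genes. The sources used here do not say how reads that fit several copies were counted, so single members are uncertain.

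Rps27, a protein of the small subunit, was at 404, 454 and 430 CPM in injured and at 261, 186 and 234 CPM in HuMSC50 libraries (log2 fold change -0.92 ± 0.14, edgeR adjusted p = 0.0114). The HuMSC50 libraries lay below every injured, control and HuMSC20 library. Rpl22 and Rpl11, of the large subunit, fell by 0.68 ± 0.12 (edgeR adjusted p = 0.0171) and 0.55 ± 0.10 (edgeR adjusted p = 0.0196). Rplp0, of the stalk that recruits elongation factors, was at 1353, 1382 and 1302 CPM against 898, 925 and 1142 CPM, the last from HuMSC50 replicate 3 (log2 fold change -0.45 ± 0.12, edgeR adjusted p = 0.0464). The count of 22 became 11, 0 and 0 without HuMSC50 replicates 1, 2 and 3 and 8, 0 and 0 without injured replicates 1, 2 and 3.

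Translation of ribosomal protein messengers is known to be set through a run of C and T bases at the very start of the messenger, the 5′ terminal oligopyrimidine motif, which lets growth signals through mTOR switch the whole family together. For this reason, the starts of 5 ribosomal protein genes are shown, chosen after their values were seen. They have the smallest adjusted p among those with an entry in the RefSeq promoter table. The values here are RNA levels, and translation was not measured. Each stretch runs from 80 bases before the RefSeq gene start to 15 bases from it (assembly GRCr8), and capitals mark the longest unbroken run of C or T that covers any base from 2 before to 2 after the start, read on the gene's strand.
Rps27a: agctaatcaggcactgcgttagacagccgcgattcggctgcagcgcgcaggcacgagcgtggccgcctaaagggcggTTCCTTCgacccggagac
Rps27: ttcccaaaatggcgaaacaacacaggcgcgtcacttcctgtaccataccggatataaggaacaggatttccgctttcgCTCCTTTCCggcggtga
Rpl26: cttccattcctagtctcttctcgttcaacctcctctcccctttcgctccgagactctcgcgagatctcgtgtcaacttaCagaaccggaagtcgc
Rpl31: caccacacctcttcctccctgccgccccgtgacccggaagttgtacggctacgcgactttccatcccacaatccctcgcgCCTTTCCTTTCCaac
Rps24: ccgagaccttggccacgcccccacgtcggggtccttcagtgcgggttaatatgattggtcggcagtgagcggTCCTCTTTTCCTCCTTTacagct
The stretches lie at chr14:107488927-107489021 on the minus strand for Rps27a, chr2:177964592-177964686 on the minus strand for Rps27, chr10:54109612-54109706 on the plus strand for Rpl26, chr9:49143031-49143125 on the plus strand for Rpl31 and chr16:96437-96531 on the plus strand for Rps24. The runs are 7, 9, 1, 12 and 17 bases long, so 4 of the 5 starts carry one of 5 or more bases and that of Rpl26 does not. Such a run was found at 20.3% of the 27457 RefSeq promoters of this length. Of the 54 tested genes of the wider set with a promoter in the table, 68.5% held one, as did 71.8% of the 39 that fell. The other entries of the 73 have no promoter in the table, which leaves a check over all members void.

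The 5 genes had log2 fold changes of -1.15 ± 0.17 for Rps27a, -0.92 ± 0.14 for Rps27, -0.76 ± 0.12 for Rpl26, -0.95 ± 0.15 for Rpl31 and -0.73 ± 0.12 for Rps24. Rps27a, which is made as a fusion with ubiquitin, was at 401, 489 and 448 CPM in injured and at 233, 160 and 208 CPM in HuMSC50 libraries (edgeR adjusted p = 0.00897). HuMSC50 replicate 2 was the lowest of the 15 libraries for Rps27a, Rps27, Rpl26, Rpl31 and Rps24, and their calls were lost without it.

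A part of the nuclear genes of oxidative phosphorylation fell as well. Of 31 tested subunit genes, 7 fell and none rose in edgeR's test, while 2.69% of all tested genes fell and 2.42% rose. The median log2 fold change of the list was -0.32 against 0.02 over all genes. Cox6c, a subunit of cytochrome c oxidase, was at 108, 105 and 118 CPM in injured and at 80.7, 55.4 and 67.2 CPM in HuMSC50 libraries, with no overlap (log2 fold change -0.70 ± 0.14, edgeR adjusted p = 0.0227). Ndufa4, found in the same complex, fell by 0.55 ± 0.12 (edgeR adjusted p = 0.0252), Cox5a by 0.35 ± 0.08 (edgeR adjusted p = 0.0290), and Ndufb5, of complex I, by 0.44 ± 0.11 (edgeR adjusted p = 0.0363). Of 13 mitochondrially encoded transcripts, none passed the test and 12 were below 0, with a median of -0.33. The count of 7 held without HuMSC50 replicate 1 and was 0 without any one of the other 5 libraries.

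**Figure D3:**
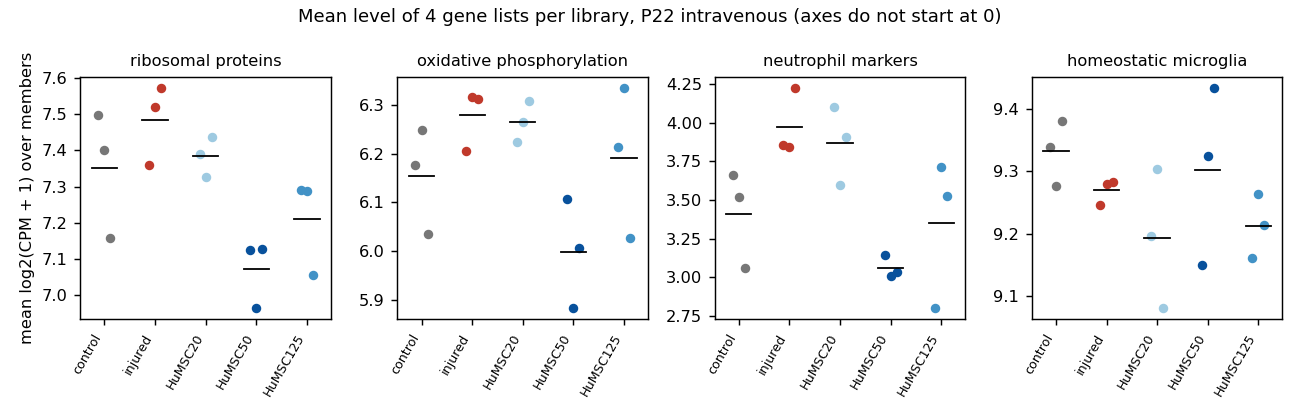
Mean log2(CPM + 1) over the members of 4 gene lists in each library of the 5 groups, with bars for the mean of 3; the y axes do not start at 0. The HuMSC50 libraries lie below all injured libraries for ribosomal proteins, oxidative phosphorylation and neutrophil markers, and the groups overlap for homeostatic microglial genes.

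Among the called genes with the highest mean CPM, Tmsb4x and Bin2 also fell. Tmsb4x, which encodes the actin-sequestering thymosin β4, was at 5414, 6034 and 6464 CPM in injured and at 4359, 3410 and 4002 CPM in HuMSC50 libraries (log2 fold change -0.61 ± 0.17, edgeR adjusted p = 0.0497). Bin2, a membrane-bending protein of leukocytes, changed by -0.40 ± 0.09 (edgeR adjusted p = 0.0295). Cttnbp2nl, a partner of the phosphatase complex STRIPAK, went the other way, from 533, 526 and 553 CPM to 771, 815 and 842 CPM (log2 fold change 0.59 ± 0.09, edgeR adjusted p = 0.0131). For all 3 genes the injured and HuMSC50 libraries did not overlap, and the calls were lost without HuMSC50 replicate 2, or without injured replicate 2 or 3.

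Markers of blood leukocytes were among the largest falls. Of 14 tested neutrophil markers, 5 fell and none rose in edgeR's test, with a median log2 fold change of -1.16. By comparison, 2.69% of all tested genes fell and 2.42% rose. S100a9 and S100a8 form the calcium-binding protein calprotectin of neutrophils. S100a9 was at 120, 147 and 217 CPM in injured and at 64.4, 40.5 and 36.5 CPM in HuMSC50 libraries (log2 fold change -1.78 ± 0.39, edgeR adjusted p = 0.0269), and S100a8 fell by 1.69 ± 0.40 (edgeR adjusted p = 0.0324). The groups did not overlap for either gene, and the controls, at 54.1 to 129 CPM for S100a9, spanned the gap and reached into both ranges.

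Retnlg, a resistin-like protein of neutrophils, had 4.52, 5.52 and 5.29 CPM in injured and 0.928, 0.962 and 1.33 CPM in HuMSC50 libraries (log2 fold change -2.25 ± 0.32, edgeR adjusted p = 0.00897). The granule proteases Mmp8 and Mmp9 fell by 1.54 ± 0.38 (edgeR adjusted p = 0.0392) and 1.25 ± 0.34 (edgeR adjusted p = 0.0488). Of other large falls by the naming rule, Stfa2 (-2.51 ± 0.60), G0s2 (-2.23 ± 0.35), Lrg1 (-1.72 ± 0.27) and Lilrb3 (-1.59 ± 0.43) encode a cysteine protease inhibitor, an inhibitor of triglyceride breakdown, a secreted glycoprotein and an inhibitory receptor, all of which myeloid cells of the blood can express. Csf3r, the receptor of granulocyte colony-stimulating factor, also counted among the neutrophil markers, was at 275 to 333 CPM in injured and 281 to 322 CPM in HuMSC50 libraries and did not pass (log2 fold change -0.07 ± 0.10, edgeR adjusted p = 0.672).

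Some lymphoid markers fell too, at low levels. Of 9 tested T and NK cell markers, Ccl5, Prf1 and Nkg7 fell and none rose in edgeR's test. The median of the 9 was -1.27, and 2.69% of all tested genes fell and 2.42% rose. Ccl5, a chemokine of T and NK cells, was at 5.50, 5.12 and 7.09 CPM in injured and at 0.717, 1.83 and 1.56 CPM in HuMSC50 libraries (log2 fold change -2.12 ± 0.37, edgeR adjusted p = 0.0164). Prf1, the pore-forming protein of cytotoxic cells, fell by 2.03 ± 0.48 (edgeR adjusted p = 0.0329) and Nkg7, of their granules, by 1.51 ± 0.40 (edgeR adjusted p = 0.0460). The groups did not overlap for these genes. Cd4, which rat microglia and macrophages also express, stood at 359 to 535 CPM in HuMSC50 and 393 to 523 CPM in injured libraries and did not pass (log2 fold change 0.05 ± 0.15). S100a4, a calcium-binding protein also counted among monocyte markers, fell by 0.85 ± 0.22 (edgeR adjusted p = 0.0442). Its call was lost when any library of the 6 but HuMSC50 replicate 1 was left out. Monocyte markers as a list summed to 2314 to 2415 CPM in injured and 2277 to 2535 CPM in HuMSC50 libraries, which overlapped. Their mean log2(CPM + 1) was 4.50 to 4.75 and 4.03 to 4.31, without overlap. B cell markers summed to 23.9 to 36.0 and 31.0 to 34.6 CPM, which overlapped.

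The summed neutrophil marker level was 571 to 823 CPM in injured, 400 to 446 CPM in HuMSC50 and 474 to 597 CPM in control libraries. Csf3r, which did not pass, made up most of this sum in HuMSC50 libraries. The summed T and NK marker level, most of it Cd4, was 420 to 547 CPM in injured and 374 to 548 CPM in HuMSC50 libraries. The 9 erythroid entries, whose haemoglobin copies are uncertain, were all below 0 with a median of -2.95 and none called, and their summed level was 657 to 6005 CPM in injured and 81.0 to 789 CPM in HuMSC50 libraries. The part of such cells in the result was not tested. The 5 neutrophil calls became 3, 0 and 1 without HuMSC50 replicates 1, 2 and 3 and 2, 0 and 0 without injured replicates 1, 2 and 3; the 3 T and NK calls became 1, 0 and 0 and 1, 0 and 0.

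The heat shock genes Hspa1b and Hspb1 fell against both injured and control libraries. Hspa1b, an inducible HSP70 chaperone with near-identical copies, was at 155, 107 and 120 CPM in injured, 155, 195 and 69.5 CPM in control and 44.2, 42.1 and 28.7 CPM in HuMSC50 libraries. Its log2 fold change was -1.73 ± 0.36 against injured (edgeR adjusted p = 0.0235) and -1.87 ± 0.36 against control (edgeR adjusted p = 0.0455). Hspb1, the small heat shock protein HSP27, was at 84.7, 54.6 and 72.3 CPM in injured and at 32.8, 29.0 and 22.7 CPM in HuMSC50 libraries (log2 fold change -1.32 ± 0.23, edgeR adjusted p = 0.0166), and it changed by -1.38 ± 0.23 against control (edgeR adjusted p = 0.0379). For both genes each HuMSC50 library lay below each injured and control library.

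Other chaperones gave smaller values. Dnajb1 differed from injured by -0.55 ± 0.26 (edgeR adjusted p = 0.207) and Hspa8 by -0.24 ± 0.09 (edgeR adjusted p = 0.108). The list of the immediate early and dissociation response holds genes that cells switch on during tissue dissociation. Of its 32 tested genes, Hspa1b was the 1 that passed, and the median was 0.02. This count stands beside 2.69% of all tested genes that fell and 2.42% that rose. The calls of Hspa1b and Hspb1 against injured were lost without HuMSC50 replicate 2, or without injured replicate 2 or 3, and both calls against control were lost without HuMSC50 replicate 2 or 3 or control replicate 1 or 2, that of Hspa1b also without HuMSC50 replicate 1.

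All 3 tested entries of RF00016, a family of C/D box small nucleolar RNAs that guide methylation of other RNAs, fell, with log2 fold changes of -2.10 ± 0.39, -1.64 ± 0.35 and -1.36 ± 0.24 against injured. The RF00016 entry with the most counts was at 21.1, 14.3 and 15.5 CPM in injured and at 7.76, 7.12 and 4.80 CPM in HuMSC50 libraries (edgeR adjusted p = 0.0171). The copies are alike and the RNA was selected for poly(A) tails, so their levels are uncertain. Tmem202, which encodes a membrane protein, was at 3.97, 5.72 and 7.09 CPM in injured and at 1.52, 1.40 and 1.78 CPM in HuMSC50 libraries (log2 fold change -1.84 ± 0.21, edgeR adjusted p = 0.00372). It kept its call without every library but HuMSC50 replicate 2, where the adjusted p was 0.0598, in a range of 7.29e-10 to 0.0598 over the alternatives.

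Interferon, inflammatory and metabolic lists held few calls, beside shares over all tested genes of 2.42% that rose and 2.69% that fell. Of 31 tested interferon response genes, Ifi44 (log2 fold change -0.51 ± 0.11, edgeR adjusted p = 0.0276) and Ifi27 (-0.54 ± 0.12, edgeR adjusted p = 0.0299) fell and none rose, with a median of -0.11. Of 27 tested inflammatory cytokine and NF-κB target genes, Ccl5 alone passed, and the median was -0.03. Il1b was at 77.1, 93.1 and 96.9 CPM in injured and at 115, 59.6 and 107 CPM in HuMSC50 libraries, which overlapped (log2 fold change 0.08 ± 0.33, edgeR adjusted p = 0.911).

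Of 22 tested complement and phagocytosis genes, Mertk rose and Fcgr1a, a high-affinity receptor for immunoglobulin G, fell by 0.51 ± 0.11 (edgeR adjusted p = 0.0273). Of 24 tested genes of cholesterol synthesis, Sqle, which makes the first oxygenated sterol precursor, rose by 0.53 ± 0.13 (edgeR adjusted p = 0.0378), and the median was 0.20. Single calls like these stand beside 2.42% of all tested genes that rose and 2.69% that fell. No gene passed in the lists for repair and anti-inflammatory markers, disease-associated microglia, cell cycle, LXR targets, glycolysis and hypoxia, or extracellular matrix. Apoe (log2 fold change -0.36 ± 0.23), Mrc1 (0.50 ± 0.19) and the proliferation marker Mki67 (0.12 ± 0.22) were among those that did not pass.

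The change moved with the length of the gene in the genome. When the tested genes were divided into 5 groups of equal size by their span from start to end, the median log2 fold change of HuMSC50 minus injured was -0.17, -0.10, -0.01, 0.09 and 0.23 from the shortest to the longest group. In the shortest group, of up to 5.90 kb, 10 genes rose and 208 fell, and in the longest, above 65.6 kb, 164 rose and 8 fell. The median span was 63.1 kb for the genes that rose, 5.42 kb for those that fell and 20.9 kb for all tested genes.

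**Figure D4:**
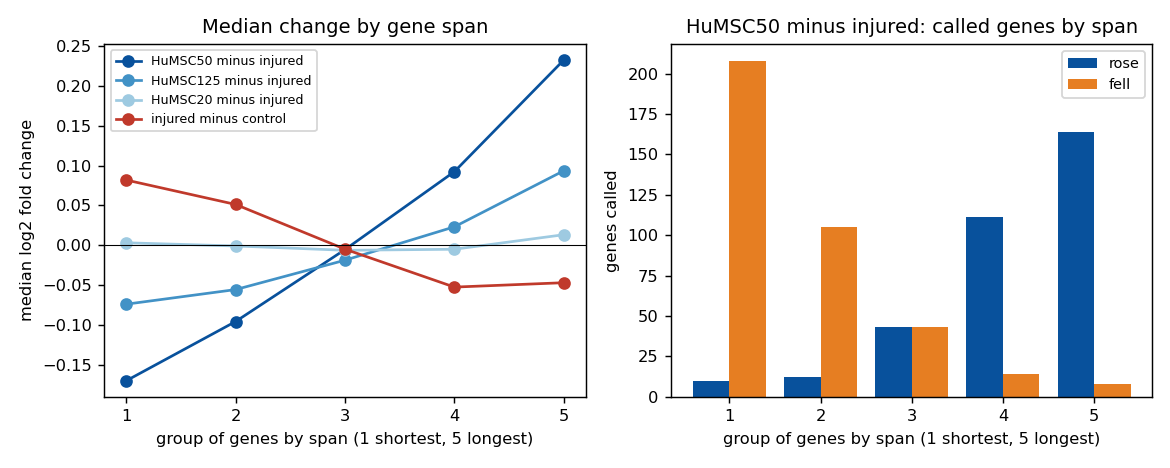
Left: median log2 fold change of 4 comparisons in 5 groups of tested genes ordered by genomic span; the 3 treated comparisons share the injured libraries. Right: number of genes called higher (blue) and lower (orange) in HuMSC50 minus injured in each group, from 10 against 208 in the shortest to 164 against 8 in the longest.

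For each library, the deviation of each gene from its mean over the 15 libraries was taken on the log2 scale. The median deviation in the longest group minus that in the shortest was 0.18, 0.33 and 0.14 in the 3 HuMSC50 libraries. It was -0.05, -0.15 and -0.17 in the injured ones. Controls had -0.09, -0.10 and 0.13, HuMSC20 -0.09, -0.15 and -0.08, and HuMSC125 0.00, -0.11 and 0.20. The HuMSC50 libraries lay above all injured, control and HuMSC20 libraries, with HuMSC125 replicate 3 among them, and HuMSC50 replicate 2, whose removal left 1 call, had the highest value. With the trend of gene span removed from each library, an alternative chosen after seeing the data, 168 genes passed (78 higher and 90 lower), 149 of them among the 718. Ncoa3 kept its call (log2 fold change 0.76 ± 0.11, edgeR adjusted p = 0.0211), and the ribosomal protein count fell from 22 to 6. The part of gene span, or of what sets it, in the changes above was not tested.

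The same libraries were compared with controls, to place treated microglia beside those of uninjured rats. Against control, 47 of 14032 genes (0.335%) passed, 4 higher (0.0285%) and 43 lower (0.306%). The injured group itself differed from control in 1 gene, Ncoa3 (log2 fold change -0.78 ± 0.09, edgeR adjusted p = 0.00493), with 2080 genes at an unadjusted p under 0.05. The 340 genes that rose against injured had a median log2 fold change of 0.22 against control and of -0.26 in injured minus control. For the 378 genes that fell, these medians were -0.36 and 0.16. These comparisons share libraries, so the values are set side by side only.

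Of the 4 genes higher than control, 1 had a provisional name and the others were Htra3, Tbx1 and Tubb6. Htra3, a secreted serine protease, was at 10.4, 12.8 and 9.49 CPM in control, 25.6, 28.5 and 25.1 CPM in injured and 40.6, 26.7 and 19.8 CPM in HuMSC50 libraries (log2 fold change 1.42 ± 0.24, edgeR adjusted p = 0.0379). Tubb6, a β-tubulin, rose by 1.01 ± 0.18 (edgeR adjusted p = 0.0439), and stood at 13.7 to 16.3 CPM in injured libraries. Tbx1, a transcription factor, was at 0, 0.182 and 0 CPM in control libraries and at 0.818 to 1.69 CPM in HuMSC50 libraries. For Htra3 and Tubb6 the injured and HuMSC50 libraries overlapped, and both groups lay above all controls.

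The 43 genes lower than control included the 3 RF00016 entries, Hspa1b, Hspb1, Tmem202, Coro6, Dux4, Enpp6 and Slfn13, with log2 fold changes of -2.66 to -1.04. Slfn13, a ribonuclease that cuts transfer and ribosomal RNA, was at 196, 171 and 167 CPM in control, 162, 122 and 141 CPM in injured and 88.6, 73.3 and 97.5 CPM in HuMSC50 libraries (log2 fold change -1.04 ± 0.17, edgeR adjusted p = 0.0379). Enpp6, a phosphodiesterase that marks newly forming oligodendrocytes, fell by 1.20 ± 0.20 (edgeR adjusted p = 0.0379) and was the 1 of 17 tested oligodendrocyte markers that passed. Among the inflammatory genes Il18, an inflammasome cytokine, fell by 0.76 ± 0.14 (edgeR adjusted p = 0.0439), and among the interferon genes Ifi44 fell by 0.65 ± 0.11 (edgeR adjusted p = 0.0379). Casp4, the caspase that senses intracellular lipopolysaccharide, and Cirbp, an RNA-binding protein induced by cold, both named after their values were seen, fell by 0.56 ± 0.07 (edgeR adjusted p = 0.0271) and 0.54 ± 0.09 (edgeR adjusted p = 0.0379).

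None of the ribosomal protein list passed against control, and Rps27a (-0.92 ± 0.17, edgeR adjusted p = 0.0439) and Rpl31 (-0.76 ± 0.14, edgeR adjusted p = 0.0455) passed among all 73 entries. The 47 calls became 85, 0 and 4 without HuMSC50 replicates 1, 2 and 3 and 0, 50 and 122 without control replicates 1, 2 and 3, so that no gene passed without HuMSC50 replicate 2 or control replicate 1. Enpp6 lost its call also without HuMSC50 replicate 1 or control replicate 2, Slfn13, Cirbp, Ifi44, Il18 and Tubb6 without HuMSC50 replicate 3, and Htra3 and Tubb6 without control replicate 3. Control replicate 1 held 5.32% of its counts on mitochondrially encoded transcripts against 3.18% and 3.29% in the other controls.

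The middle dose was also set against the mean of the lower and the higher dose, a comparison that leaves out the injured libraries. In edgeR's test 27 of 14032 genes (0.192%) passed, 25 higher (0.178%) and 2 lower (0.0143%). The higher genes included Kdm7a (0.83 ± 0.13, edgeR adjusted p = 0.0376), a histone demethylase, Zyg11b (0.76 ± 0.14, edgeR adjusted p = 0.0490), part of a ubiquitin ligase, and Cpeb4 (0.64 ± 0.09, edgeR adjusted p = 0.0342). They were followed by Dennd1b, Ncoa3, N4bp2, Skil, Mbtd1, Klhl24 and Prkd3, with log2 differences of 0.63 to 0.47. Kdm7a was at 30.6, 41.8 and 32.5 CPM in HuMSC50, 18.1, 18.4 and 17.7 CPM in HuMSC20 and 22.2, 18.6 and 23.2 CPM in HuMSC125 libraries. That the middle dose lay above both was required by the naming rule.

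The 2 lower genes were Tmem202 (-1.04 ± 0.19, edgeR adjusted p = 0.0490) and Arrdc2 (-0.46 ± 0.08, edgeR adjusted p = 0.0490), an arrestin-domain protein. Arrdc2 was at 17.7, 16.5 and 17.4 CPM in HuMSC50 libraries, below the 20.8 to 26.8 CPM of all HuMSC20 and HuMSC125 libraries. The 27 calls became 132, 0 and 0 without HuMSC50 replicates 1, 2 and 3, 0 without any one HuMSC20 library, and 0, 0 and 687 without HuMSC125 replicates 1, 2 and 3. They became 1 with DESeq2's scaling method, RLE, in place of TMM, and 0 with the trend of gene span removed.

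Tested on its own against injured, the lower dose gave no called gene of 14032 (0%) in edgeR's test, with 557 at an unadjusted p under 0.05, and the higher dose gave 1 (0.00713%), Ncoa3 (log2 fold change 0.67 ± 0.09, edgeR adjusted p = 0.0267), with 2061 at an unadjusted p under 0.05. The 340 genes that rose with the middle dose had medians of 0.07 for HuMSC20 and 0.17 for HuMSC125, and the 378 that fell had -0.16 and -0.34. For Rps27 the log2 differences from injured were -0.35 ± 0.14, -0.92 ± 0.14 and -0.69 ± 0.14 at 20, 50 and 125 M cells per kg, and for Mertk 0.11 ± 0.08, 0.48 ± 0.08 and 0.39 ± 0.08. All of these share the injured libraries.

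The same dose was given intranasally at the same age in another experiment, sequenced in a run of its own. There, HuMSC50 against injured gave no called gene of 13594 (0%) in edgeR's test, with 2238 at an unadjusted p under 0.05. The test of the difference between the routes, in the 30 libraries of both experiments, gave none of 14184 (0%) with edgeR and none with DESeq2, with 460 at an unadjusted p under 0.05 in edgeR. A difference between the routes was thus not detectable in these libraries, which does not show that the routes act alike.

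By the intranasal route Ncoa3 was at 457, 523 and 428 CPM in HuMSC50 and at 108, 288 and 330 CPM in injured libraries (log2 fold change 0.96 ± 0.27, edgeR adjusted p = 0.269). The groups did not overlap, but intranasal injured replicate 1 stood far below its 2 companions. The difference between the routes for Ncoa3 was -0.02 ± 0.30, and it was 0.32 ± 0.14 without that library (edgeR adjusted p = 0.719, in a range of 0.719 to 1.00). Rps27 was at 268, 232 and 234 CPM in HuMSC50 and at 438, 266 and 295 CPM in injured libraries by this route, where the groups overlapped, and the same injured library was again the extreme. Over the lists, 31 of 33 ribosomal proteins were below 0 by the intranasal route (median log2 fold change -0.30, against -0.45 intravenously), 29 of 31 oxidative phosphorylation genes were below 0 (-0.26 against -0.32) and 26 of 27 chromatin regulators were above 0 (0.34 against 0.21). Of 14 neutrophil markers 10 were below 0 (-0.27 against -1.16). No member of these lists was called by the intranasal route. The intranasal list values include injured replicate 1 and were not computed without it. S100a9 was at 48.8, 61.7 and 22.9 CPM against 105, 23.2 and 43.7 CPM, also with overlap (log2 fold change -0.36 ± 0.45).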

How the data were processed

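Reads were 75-base single reads from strand-specific libraries made from 100 ng of total RNA, per the labels' protocols. The authors deposited 1 table of raw counts per gene, in which the 90 library columns were matched to samples by library name. The submitters' processing notes name DESeq2 1.8.1, HTSeq 0.5.3, STAR 2.7.2d and SAMtools, and the genome build, annotation and counting settings are not given in the sources used here.

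Counts were analysed with edgeR 4.0.16 (limma 3.58.1, R 4.3.3): filterByExpr (minimum count 10, total 15), TMM factors, quasi-likelihood fits with 1 mean per group over the 15 libraries of the intravenous P22 experiment (30 for the comparison of routes), and Benjamini-Hochberg adjustment over all genes tested at 0.05. Of 32623 genes, 14032 were tested. CPM values use TMM-scaled totals, and standard errors are the log2 fold change divided by the root of F. DESeq2 1.42.0 was an alternative, and the script was tested on simulated data. Totals of 16.2 M to 24.4 M counts limit the precision of genes near 1 CPM.

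The comparison and the gene lists (19 by function and 16 by cell type, 678 of 712 genes matched) were chosen with earlier results of these data known. List genes that did not match were not analysed here. Named genes are the 15 largest rises and the 15 largest falls that passed, where the mean level was 1 or more on the log2 CPM scale and the groups did not overlap (10 each for other comparisons), up to 4 members per list by p, the 10 most abundant called genes and a panel of microglial genes, of which a part is printed; provisional symbols were left out. For the largest rises and falls, lack of overlap was a condition of naming, so it lends no support. Gene span is the distance between the start and end columns of the authors' deposited table. Promoter sequences are from RefSeq (GRCr8) by symbol. The alternatives were other scaling, no filter, DESeq2, a replicate block, the 6 libraries alone and each library left out, and the removal of the gene-span trend was added after seeing the data.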

Additional observations from a re-analysis of the deposited data

How the results depend on the processing

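For HuMSC50 minus injured, DESeq2 called 1551 genes and the fit with gene-span trend removed called 168, against 718. Leaving out 1 library gave 1 to 844 genes. For HuMSC50 minus control, library totals in place of TMM gave 0, no low-count filter 119, DESeq2 987 and the 6 libraries alone 0, against 47; leaving out 1 library gave 0 to 122. For HuMSC50 minus the mean of the other doses, RLE factors gave 1, no filter 3, DESeq2 691 and the removal of the span trend 0, against 27; leaving out 1 library gave 0 to 687. Fits without 1 library, and those of the 6 libraries alone, rest on fewer samples by construction; for the other settings the cause was not tested. The comparison of routes had no call in any setting run.

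The correlation of the deviations of HuMSC50 and injured libraries of the same number was 0.01, -0.23 and 0.17. Among the HuMSC50 libraries, replicate 3 alone correlated best with its own number. With 3 libraries per group, these values cannot decide whether replicate numbers pair the samples. With the replicate number as a block, the calls were 225 against injured, 0 against control and 0 against the other doses. Where edgeR called none, the genes at an unadjusted p under 0.05 numbered, against control, 3268 with library totals, 3014 with the block and 2566 with the 6 libraries alone, and against the other doses 2399 with the block and 1813 with the span trend removed.

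Values near 0 changed sign. P2ry12 was 0.012 with library totals, 0.14 with the span trend removed and -0.091 to 0.062 leaving out 1 library. Leaving out 1 library gave -0.090 to 0.32 for Il1b, -0.14 to 0.29 for Mki67, -0.073 to 0.21 for Cd4 and, for the difference between the routes, -0.32 to 0.32 for Ncoa3. Of the values of 120 named genes (a gene counts once in each comparison it is named in), 108 of 120 kept direction and side of the threshold with RLE factors, 94 of 120 with library totals, 106 of 120 without the low-count filter, 117 of 118 with DESeq2, 54 of 120 with the block, 61 of 119 with the span trend removed and 84 of 107 with 6 libraries alone. With 1 library left out, 270 of 762 values did so, 480 kept only the direction and 12 changed sign. Genes near 1 CPM are limited by depth, with totals of 16.2 M to 24.4 M counts.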
